A study of Mus musculus with 12 samples.

Results

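Vnn1 and Vnn3 encode the vanins, or pantetheinases, that were represented on the arrays. They were found by gene symbol, and gave 2 genes and 3 probes of the 34509 symbols and 46632 probes in the table. Vnn3 has 2 probes and Vnn1 has 1. Vnn3 was chosen by its measured log2 difference between retinoic acid and IL-1α, among the largest falls, and Vnn1 as its relative, so the values of that comparison are given as a description with no test.

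RNA came from femoral head cartilage explants of 21-day-old TS-4/5∆cat mice, which make ADAMTS-4 and ADAMTS-5 without their catalytic domains, and it was measured on 12 single-colour bead arrays. Explants were left untreated or were treated for 3 days with 10 ng/mL IL-1α, an inflammatory cytokine, or with 10 µM retinoic acid, the active form of vitamin A, with 4 arrays for each treatment. Within each treatment, 2 arrays came from the Donut line (batch 1) and 2 from the Gertrude line (batch 2), so that batch and mouse line cannot be told apart. All arrays carried both deletions, the untreated ones included, and no wildtype tissue was on them. The labels give 4 explants to a well and serum in the period before treatment, whereas the methods describe serum-free culture. The methods give 3 unpooled mice to each treatment, fewer than its 4 arrays, and the labels do not tie arrays to animals. Some arrays may therefore share an animal, and p-values measure only the spread between these samples, part of which may be technical.

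Pantetheinases cut pantetheine, a breakdown product of coenzyme A, into pantothenate, which is vitamin B5, and cysteamine. Pantothenate can be taken up again for coenzyme A synthesis, and cysteamine is a thiol that can be oxidised to hypotaurine and taurine. Vnn1 is held at the cell surface by a lipid anchor and is known as a target of the lipid-sensing receptor PPARα in liver, and mouse Vnn3 lies beside it on the same chromosome.

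The stretch before the Vnn3 start site is shown because Vnn3 is the vanin that was detected with IL-1α. It covers the 250 bases before the start at chr10:23851212-23851461 (+ strand, RefSeq on GRCm38.p6), and the capitals mark the single match to the C/EBP motif TTGCNNAA.
Vnn3 promoter: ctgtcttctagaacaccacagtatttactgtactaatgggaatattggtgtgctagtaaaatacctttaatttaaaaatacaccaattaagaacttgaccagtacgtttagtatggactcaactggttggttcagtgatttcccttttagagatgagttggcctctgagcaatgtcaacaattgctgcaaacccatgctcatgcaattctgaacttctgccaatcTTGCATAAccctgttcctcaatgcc
The match began 25 bases before the start (position -25), and 9.56% of 32851 promoters of this length held one on either strand. No match on either strand was found to the NF-kappaB motif (3.90% of promoters), the AP-1 motif TGANTCA (6.75%), the retinoic acid receptor half-site AGGTCA (14.02%) or the TATA box TATAAA (12.4%). The GC content of the stretch was 39.2%, against a median of 52.4% over all promoters, and it held 1 CpG against a median of 6. A match describes the letters of this window and is not a binding site.

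Vnn3 RNA was bright in IL-1α-treated cartilage and not well above background in untreated or retinoic acid-treated cartilage, in both lines and with both probes. Vnn1 RNA was not well above background on any array. A probe was called detected on an array when its detection p, which compares it with background, was under 0.05.

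For the brighter Vnn3 probe, ILMN_2491202, the raw intensities with IL-1α were 1176.5, 888.6, 1375.3 and 904.6, with batch 1 first here and in every list of 4 values. The untreated arrays gave 33.3, 43.8, 57.0 and 39.2. Those with retinoic acid gave 49.8, 40.4, 60.3 and 58.7. The 4 arrays with IL-1α stood far above the other 8, while the untreated and retinoic acid arrays overlapped.

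After background correction and quantile normalization, the log2 intensity of this probe with IL-1α was 10.25, 10.22, 10.02 and 9.92 (mean 10.10 ± 0.16, SD, n = 4). It was 4.66, 5.07, 4.65 and 4.56 in untreated cartilage (4.73 ± 0.23, SD, n = 4). It was 5.02, 4.95, 4.71 and 4.64 with retinoic acid (4.83 ± 0.18, SD, n = 4). The lowest intensity of a detected probe lay between 4.86 and 5.48 on this scale, depending on the array, and the probe lay under its own array's limit on all 8 arrays without IL-1α.

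**Figure D1:**
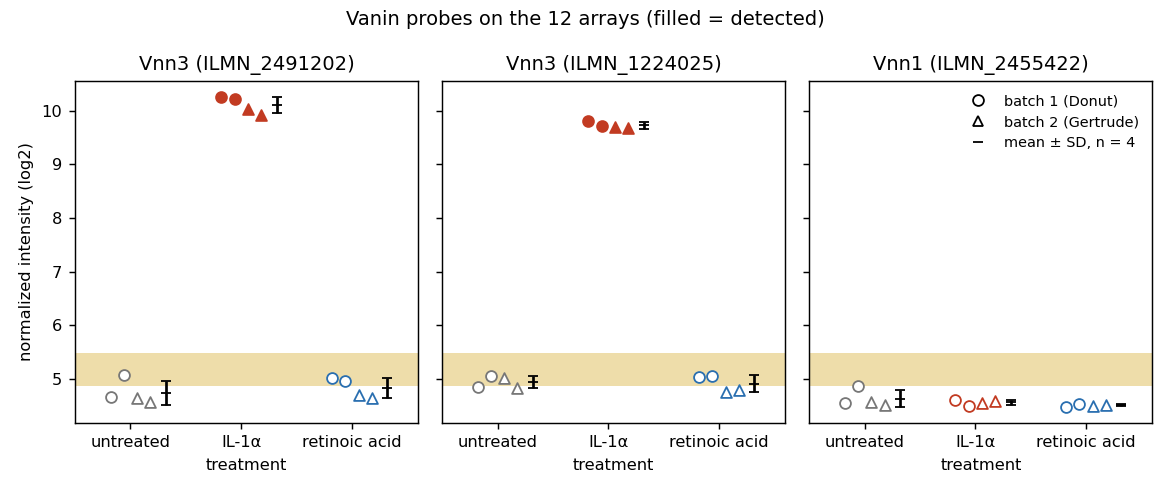
Normalized log2 intensity (y axis) of the Vnn3 probes and the Vnn1 probe by treatment (x axis), with 1 point for each of the 12 arrays, circles for batch 1, triangles for batch 2 and filled symbols for detected probes. Bars show mean ± SD (n = 4), and the shaded band is the range over arrays of the lowest detected intensity (4.86 to 5.48); only the Vnn3 probes with IL-1α lie above it.

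The second Vnn3 probe, ILMN_1224025, gave the same picture. Its raw intensities with IL-1α were 852.3, 616.8, 1105.8 and 776.3, against 37.1, 43.7, 75.9 and 49.7 in untreated cartilage and 50.2, 42.2, 62.7 and 70.0 with retinoic acid. On the log2 scale it stood at 9.81, 9.71, 9.69 and 9.68 with IL-1α (9.72 ± 0.06, SD, n = 4). The untreated arrays were at 4.85, 5.06, 5.02 and 4.84 (4.94 ± 0.11, SD, n = 4) and the retinoic acid arrays at 5.04, 5.06, 4.75 and 4.80 (4.91 ± 0.16, SD, n = 4). Again the IL-1α arrays stood apart and the other 8 overlapped. Over the 12 arrays, with the mean of each batch and replicate set to 0, the probes had a Pearson correlation of 0.999, as a description over arrays that both share.

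The second probe came closer to the detection limit. Its detection p on the 8 arrays without IL-1α ranged from 0.0561 to 0.145. At a looser limit of 0.1 it would count as detected on 3 of 4 untreated and 2 of 4 retinoic acid arrays. The brighter probe would then be detected on 1 of 4 untreated and 0 of 4 retinoic acid arrays. A low level of Vnn3 RNA without IL-1α was therefore not resolved on these arrays.

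Since the dim groups give only a limit, the size of the difference is stated as a bound. It sets the IL-1α mean against the mean, over the dim group's arrays, of the lowest detected intensity or the probe's own, whichever is higher. Vnn3 was at least 30.2-fold higher with IL-1α than with retinoic acid by the brighter probe and at least 23.2-fold higher by the other. Against untreated cartilage it was at least 31.6-fold and at least 24.3-fold higher. No fold is given between retinoic acid and untreated, since both were under the limit. The bounds depend on how the low end of the scale is set. With no background correction, that against retinoic acid was 17.5-fold by the brighter probe, with an offset of 50 it was 16.1-fold, and with detection p under 0.01 it was 17.3-fold. In whole-tissue RNA, fewer cells of a type and less RNA per cell cannot be told apart.

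Among the 18200 probes detected on at least 4 arrays, the fitted falls of the Vnn3 probes from IL-1α to retinoic acid ranked 4th and 6th. Larger fitted falls were those of Saa1 and Saa2, which encode acute-phase serum amyloid A proteins, and Ccl5, a chemokine. Slpi, a secreted inhibitor of serine proteases, lay between the Vnn3 probes, and Zcchc5 came next after them. These ranks restate how Vnn3 was chosen. Both probes passed the detection filter through their 4 IL-1α arrays alone, and 24 of the 18200 probes (0.132%) were detected on all IL-1α arrays and on no other.

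Vnn3 was detected with IL-1α and undetected without it in both batches. The bound against untreated was 30.9-fold in batch 1 and 32.3-fold in batch 2 for the brighter probe, and 22.2-fold and 26.5-fold for the other. Within IL-1α, batch 2 minus batch 1 was -0.26 on the log2 scale for the brighter probe and -0.07 for the other, a description over 2 arrays a batch. Vnn3 was under the detection limit in untreated cartilage of both lines, so the lines were not compared there.

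The level of Vnn3 with IL-1α also varied little. The SD over the 4 arrays was 0.16 and 0.06 for the 2 probes, against a median SD of 0.32 over the 12659 probes detected on all IL-1α arrays. Of those probes, 17.96% had a smaller SD than the brighter Vnn3 probe and 1.81% a smaller one than the other.

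Vnn1 was represented by ILMN_2455422 and was detected on 0 of 12 arrays. Its raw intensities were 30.4, 40.0, 51.8 and 36.7 in untreated cartilage, 39.1, 29.8, 49.9 and 42.6 with IL-1α, and 31.9, 29.9, 46.1 and 47.5 with retinoic acid. The 3 treatments overlapped throughout, and detection p ranged from 0.148 to 0.860. On the log2 scale the means were 4.63 ± 0.16 untreated, 4.56 ± 0.04 with IL-1α and 4.51 ± 0.02 with retinoic acid (SD, n = 4). With every group under the detection limit, no fold and no test are given for Vnn1. The Vnn1 probe was under the detection limit on the same 4 IL-1α arrays on which the Vnn3 probes were bright.

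The genes whose pattern over the 12 arrays was most like that of Vnn3 were ranked by Pearson correlation with its brighter probe, after the mean of each batch and replicate was set to 0. All share the same arrays, and the correlations are a description. Over 14316 genes the median correlation was 0.03, and 16 genes exceeded 0.99. Nos2, the inducible nitric oxide synthase, was first (r = 0.9997). Adora1, the adenosine A1 receptor, Gpr109a, a receptor for niacin and hydroxybutyrate, and the array symbol LOC630470 followed. Orm1 and Orm2, which encode acute-phase orosomucoids, D930049F02Rik and Relb, an NF-kappaB subunit, completed the first 8, the last of which had r = 0.994. Orm1 and Orm2 are close copies, so their probes may share signal.

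Like Vnn3, Nos2 was at background without IL-1α. Its log2 intensity was 8.89, 8.89, 8.94 and 9.02 with IL-1α, and its means were 4.86 untreated and 4.95 with retinoic acid, with 0 of 8 of those arrays detected. The bound was at least 14.1-fold over untreated and at least 13.4-fold over retinoic acid. Adora1, Gpr109a and Relb differed from Vnn3 in that they were detected on all 12 arrays. Adora1 had mean log2 intensities of 7.28 untreated, 9.35 with IL-1α and 7.24 with retinoic acid. Relb had 6.94, 8.39 and 6.96 in the same order, and Gpr109a had 5.74, 8.64 and 5.78.

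**Figure D2:**
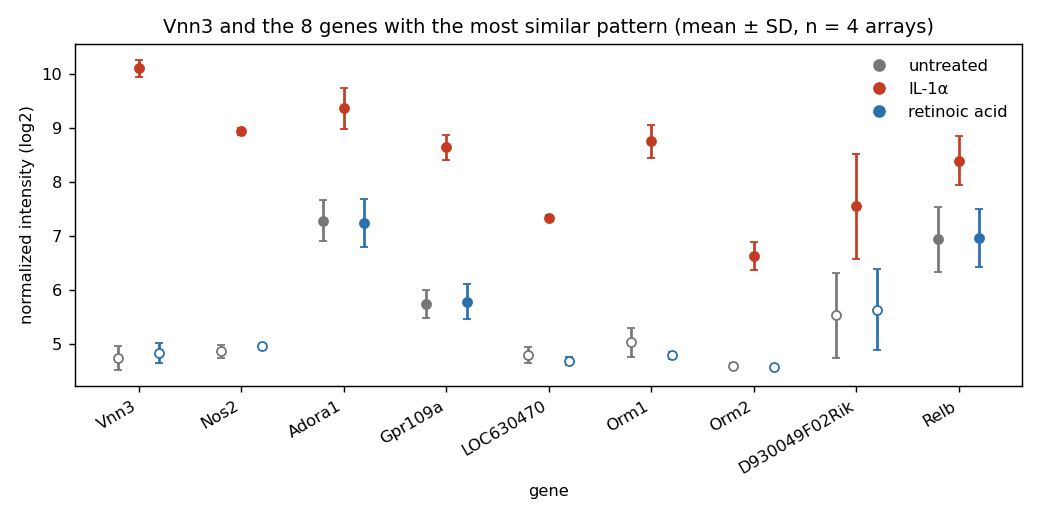
Normalized log2 intensity (y axis, mean ± SD, n = 4 arrays) of Vnn3 and the 8 genes with the most similar pattern (x axis) in the 3 treatments, with filled points where all 4 arrays of a group were detected. Vnn3, with an IL-1α mean of 10.10, is at background in the other groups, whereas Adora1, Gpr109a and Relb are detected without IL-1α.

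The genes around the pantetheinase reaction were taken as 6 lists of 46 genes in all, of which 44 were on the array and 31 passed the detection filter. A gene was represented by its brightest probe. With retinoic acid against IL-1α, 15 of the 31 genes passed the test (48.4%, against 32.5% of all genes tested). Of these, 6 were higher (16.1% of all genes) and 9 lower (16.4%). With retinoic acid against untreated, 15 passed (36.7% of all genes), 10 higher (18.6%) and 5 lower (18.1%). With IL-1α against untreated, 13 passed (30.2% of all genes), 10 higher (15.1%) and 3 lower (15.0%). With treatment as the only term in the model the counts were 6, 6 and 3, and without untreated batch 1 replicate 1 the count for IL-1α against untreated was 8. These 3 comparisons share arrays, and nothing particular to the lists is read from the counts.

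Among the listed genes, the largest changes with IL-1α were in glutathione synthesis and cystine uptake, the pathway that draws on the same cysteine pool. Of 6 genes that passed the filter, 4 rose and 1 fell with IL-1α against untreated, where 15.1% and 15.0% of all genes did. The median log2 difference was 0.75, against 0.01 over all genes. With retinoic acid against IL-1α, 5 fell and 1 rose, where 16.4% and 16.1% of all genes did. The median was -0.96, against -0.03 over all genes. With retinoic acid against untreated, 1 rose and 2 fell, where 18.6% and 18.1% of all genes did.

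Slc7a11, the cystine importer, stood at 7.69, 7.40, 6.82 and 7.19 on the log2 scale in untreated cartilage. It stood at 9.18, 9.28, 9.63 and 9.66 with IL-1α, and at 6.84, 6.67, 6.11 and 6.12 with retinoic acid. The IL-1α arrays did not overlap either other group, and of the retinoic acid arrays only 1, at 6.84, lay above the lowest untreated array. The difference was 2.16 with IL-1α against untreated (SE 0.20, adjusted p = 6.03e-06), -0.84 with retinoic acid against untreated (adjusted p = 0.00516) and -3.004 between the treatments (adjusted p = 1.28e-07). Its rise with IL-1α and its difference between the treatments were larger in batch 2 than in batch 1, where 4.82% and 8.76% of all probes differed between the batches in these comparisons. Unlike Vnn3, Slc7a11 was detected on every array.

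Gclm, the modifier subunit of the enzyme that makes γ-glutamylcysteine, rose by 0.98 with IL-1α (log2, SE 0.12, adjusted p = 8.12e-05). Gss, glutathione synthetase, rose by 1.08 (SE 0.14, adjusted p = 1.31e-04). Under the alternative settings with all arrays, the Gclm rise was 0.90 to 1.04 (limma adjusted p up to 0.0839). The Gss rise was 0.90 to 1.14 (limma adjusted p up to 0.0953). With retinoic acid against untreated, Gclm differed by 0.09 (adjusted p = 0.637) and Gss by 0.06 (adjusted p = 0.768), so neither passed the test. Slc3a2, the partner chain of the cystine importer, was dim and was detected on 7 of 12 arrays, and it rose by 0.52 with IL-1α (adjusted p = 0.0186). That call was lost without untreated batch 1 replicate 1 or 2, or IL-1α batch 1 replicate 2 or batch 2 replicate 2 (0.43 to 0.53, limma adjusted p from 0.0528 to 0.0822). Gclc, the catalytic subunit, did not pass the detection filter, and Gsr had no probe.

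Chac1, which degrades glutathione, and Ggt5, a γ-glutamyltransferase, followed other courses. Chac1 had mean log2 intensities of 10.67 untreated, 9.80 with IL-1α and 8.25 with retinoic acid. It fell by 0.87 with IL-1α (adjusted p = 0.00155) and fell by 2.42 with retinoic acid (adjusted p = 1.39e-07). Ggt5 had means of 5.71, 5.49 and 8.05 in the same order. It rose by 2.34 with retinoic acid (adjusted p = 2.61e-08) and differed by -0.22 with IL-1α (adjusted p = 0.218).

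For pantothenate uptake and coenzyme A synthesis, 8 genes passed the filter. With retinoic acid against IL-1α, 2 fell and 0 rose, where 16.4% and 16.1% of all genes did. With retinoic acid against untreated, 3 rose and 2 fell, where 18.6% and 18.1% did. With IL-1α against untreated, 2 rose and 0 fell, where 15.1% and 15.0% did. Slc5a6, the sodium-dependent transporter of pantothenate and biotin, stood between 7.14 and 8.13 with IL-1α and between 6.79 and 8.22 in untreated cartilage, and at 6.48, 6.06, 7.35 and 7.23 with retinoic acid. Within each batch, both retinoic acid arrays lay below the untreated and the IL-1α arrays. It fell by 0.67 with retinoic acid against untreated (SE 0.14, adjusted p = 0.00281). Under the alternative settings with all arrays this difference was -0.67 to -0.53 (limma adjusted p up to 0.382). Slc5a6 differed by 0.22 with IL-1α (adjusted p = 0.28).

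Ppcdc, the decarboxylase that forms phosphopantetheine, fell by 0.58 with retinoic acid against untreated (SE 0.12, adjusted p = 0.00221). Under the alternative settings with all arrays this difference was -0.60 to -0.51 (limma adjusted p up to 0.0675). Ppcdc differed by 0.15 with IL-1α (adjusted p = 0.371). Coasy, which completes coenzyme A, rose with both treatments, by 0.49 with retinoic acid and 0.51 with IL-1α (adjusted p = 0.00762 for each). Pank4 also rose with both and Ppcs rose with retinoic acid, while the pantothenate kinase genes Pank1, Pank2 and Pank3 passed in none of the 3 comparisons. Of 4 genes for coenzyme A breakdown, which lies upstream of pantetheine, only Nudt8 passed in any comparison. It rose by 0.51 with IL-1α (adjusted p = 0.0238), where 15.1% of all genes rose.

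Of 5 genes for the route from cysteamine and cysteine to taurine and for taurine transport, 3 passed with retinoic acid against IL-1α. Of all genes tested, 32.5% did. The 3 were Cdo1, which was lower (-0.98), and Csad (0.73) and the taurine transporter Slc6a6 (0.58), which were higher. Ado did not pass in that comparison (adjusted p = 0.499). Ado, the dioxygenase that acts on cysteamine itself and is listed as Gm237, differed by 0.20 with IL-1α (adjusted p = 0.284) and by 0.33 with retinoic acid against untreated (adjusted p = 0.0684). Cdo1, the cysteine dioxygenase, was dim, was detected on 6 of 12 arrays and rose by 0.90 with IL-1α (adjusted p = 5.96e-04). Both untreated arrays of batch 1 were under the detection limit, so the size of this rise depends on the low end of the scale. Under the alternative settings with all arrays it ranged from 0.50 to 0.90 (limma adjusted p up to 0.128). Csad, which decarboxylates the product of Cdo1, fell by 0.39 with IL-1α (adjusted p = 0.0184) and rose by 0.34 with retinoic acid (adjusted p = 0.0302). The first call was lost without any 1 of the batch 1 arrays of these groups (-0.38 to -0.35, limma adjusted p from 0.0592 to 0.0749). The second was lost without untreated batch 1 or batch 2 replicate 2, either retinoic acid array of batch 1, or retinoic acid batch 2 replicate 2 (0.28 to 0.35, adjusted p from 0.0638 to 0.0946).

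Among the nitrilase-family relatives of the vanins, 3 passed the filter. Btd, biotinidase, fell by 0.42 with retinoic acid against untreated (adjusted p = 0.0115) and differed by 0.17 with IL-1α (adjusted p = 0.282). Without untreated batch 1 replicate 2 its difference with retinoic acid was -0.35 (adjusted p = 0.0554). Under the alternative settings with all arrays it was -0.43 to -0.33 (limma adjusted p up to 0.351). Nit2, an amidase, rose by 0.75 with retinoic acid (adjusted p = 0.00149) and by 0.49 with IL-1α (adjusted p = 0.0267). Its rise with retinoic acid was 0.62 to 0.84 under the same alternative settings (limma adjusted p up to 0.0558). The call with IL-1α was lost without untreated batch 1 replicate 1 or 2, untreated batch 2 replicate 2, IL-1α batch 1 replicate 1 or IL-1α batch 2 replicate 2 (0.37 to 0.50, adjusted p from 0.0656 to 0.114). Nit1 passed in none of the 3 comparisons.

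PPARα, the receptor through which Vnn1 is known to be regulated, was not detected well enough to pass the filter, nor were its targets Cpt1a, Acot1 and Ehhadh. Of 5 PPAR genes and targets that passed, 4 rose with retinoic acid against untreated, where 18.6% of all genes did. The median log2 difference was 0.88, against 0.01 over all genes. Pdk4, a kinase that restrains pyruvate oxidation, stood at 8.22, 8.23, 8.70 and 9.13 untreated and at 11.13, 11.25, 12.27 and 12.15 with retinoic acid. These groups did not overlap, and the rise was 3.13 (SE 0.17, adjusted p = 2.61e-08). Pparg rose by 1.75 with retinoic acid (SE 0.12, adjusted p = 2.31e-07) and fell by 0.88 with IL-1α (adjusted p = 2.00e-04). Angptl4, an inhibitor of lipoprotein lipase, rose by 0.88 with retinoic acid and 0.41 with IL-1α (adjusted p = 6.24e-05 and 0.0176). Its call with IL-1α was lost without untreated batch 1 replicate 1 or either IL-1α array of batch 2 (0.37 to 0.41, adjusted p from 0.0509 to 0.0608). Vnn1 stayed under the detection limit on the retinoic acid arrays where Pdk4, Pparg and Angptl4 were higher. PPAR activity was not measured, and a link between these genes and Vnn1 was not tested.

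**Figure D3:**
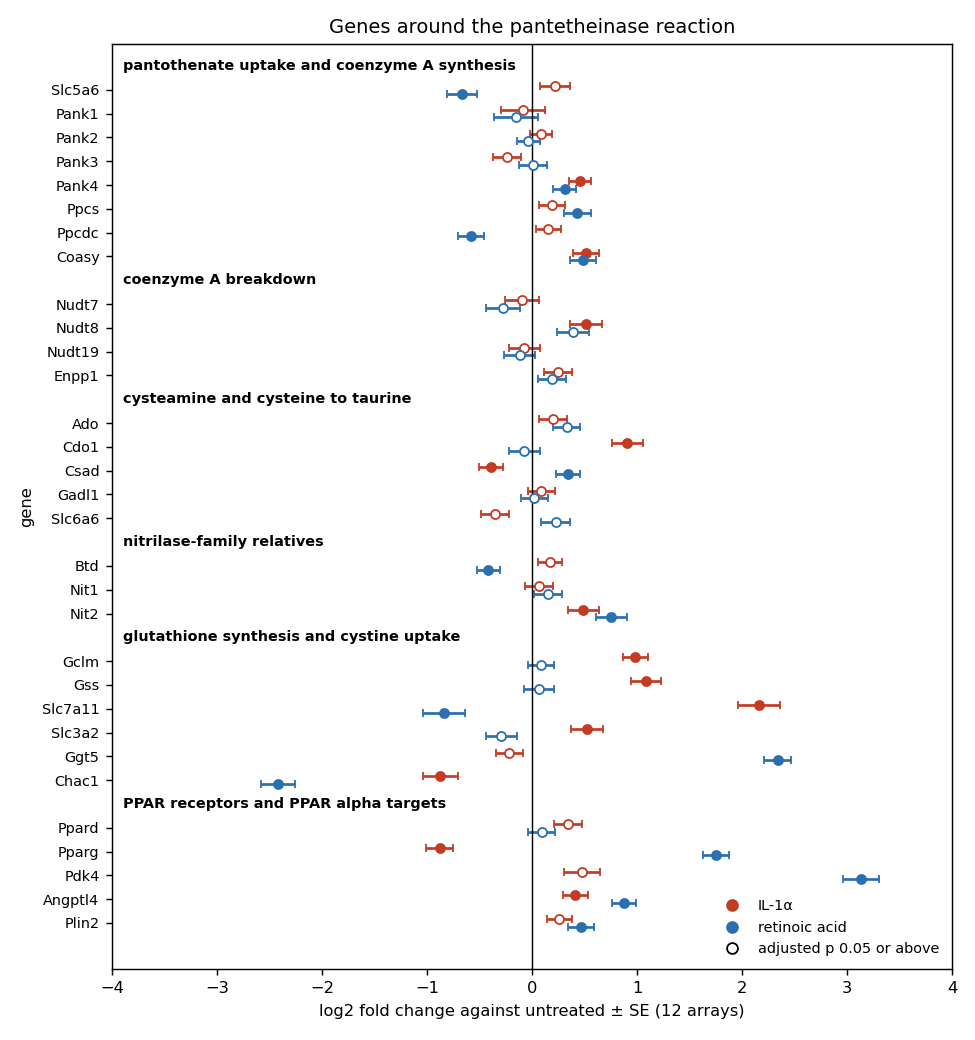
Log2 fold change against untreated (x axis, ± SE, fitted over 12 arrays) for the 31 detected genes around the pantetheinase reaction (y axis, by list), with filled points for adjusted p under 0.05. Slc7a11, Gss and Gclm lie to the right with IL-1α (2.16, 1.08 and 0.98), and Pdk4, Ggt5 and Pparg with retinoic acid (3.13, 2.34 and 1.75).

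The cartilage markers Col2a1, Acan and Comp were among the brighter genes in untreated tissue, with mean log2 intensities of 13.59, 13.26 and 13.88, and 7 of 9 chondrocyte markers passed the filter. All 7 fell with retinoic acid against untreated, where 18.1% of all genes did. Their summed intensity was 53122 to 63495 untreated, 33103 to 43355 with IL-1α and 9894 to 15094 with retinoic acid. Matn3 was at background on all arrays. With IL-1α against untreated 5 of 7 fell, against 15.0% of all genes, and Col2a1 and Comp did not pass. The part of these markers in the Vnn3 values was not tested.

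Neutrophil genes such as S100a8 were bright in every group. Of 11 neutrophil markers 9 passed the filter. With IL-1α against untreated, 0 of 9 passed the limma test at the adjusted threshold, where 30.2% of all genes did (2 of 9 had an unadjusted p under 0.05). Their summed intensity was 10068 to 16039 untreated, 16648 to 17532 with IL-1α and 5811 to 15549 with retinoic acid, so the IL-1α arrays were the highest. Mmp8 did not pass the filter, Elane was matched to no probe, and Csf3r and Cxcr2 were dim. With retinoic acid against IL-1α, 5 of 9 fell and none rose, against 16.4% and 16.1% of all genes. With retinoic acid against untreated 4 of 9 fell, against 18.1% of all genes.

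The neutrophil markers did not move alike in batch 2. S100a8 stood at 12.55, 12.92, 12.42 and 12.24 on the log2 scale in untreated cartilage, at 13.15, 13.22, 12.97 and 13.04 with IL-1α, and at 11.64, 11.61, 13.13 and 13.01 with retinoic acid. In batch 2 the retinoic acid arrays of S100a8 overlapped the IL-1α arrays. Those of S100a9, at 11.55 and 11.45, lay below the IL-1α arrays of that batch, at 11.56 and 11.78. Ngp, at 9.05 or below against 10.18 or above, was lower with retinoic acid than with IL-1α in batch 2. So were Mpo, at 8.52 and 8.57 against 9.85 and 9.69, Camp and Ltf, whereas Retnlg was higher, at 9.83 and 9.88 against 8.54 and 8.93. In batch 1, every marker that passed the filter was lower with retinoic acid than with IL-1α on both arrays. Csf3r and Cxcr2 were mostly under the detection limit there. Retnlg stood in batch 1 at 7.89 and 8.09 against 9.37 and 9.30, so its direction differed between the batches. The part of neutrophil content in the Vnn3 values was not tested.

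**Figure D4:**
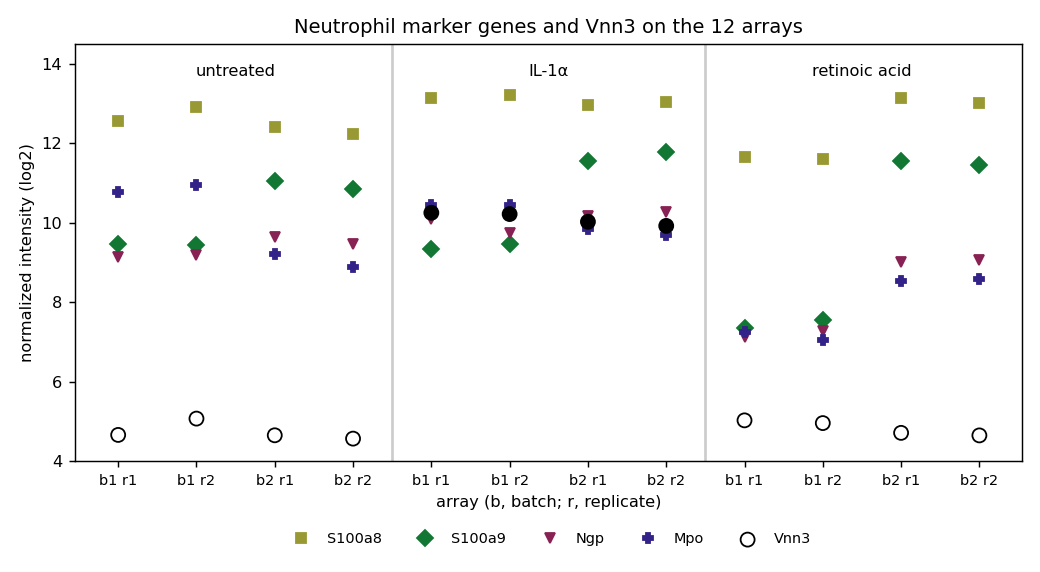
Normalized log2 intensity (y axis) of 4 neutrophil markers and the brighter Vnn3 probe on each of the 12 arrays (x axis, by treatment, batch and replicate), with filled circles where Vnn3 was detected. Vnn3 is near 10 on the 4 IL-1α arrays alone, whereas S100a8 is at 11.61 or above on all 12.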

How the data were processed

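The deposited table holds linear probe intensities of 12 arrays, neither background-subtracted nor normalized. A detection score is deposited beside each intensity under a header that names it a p-value. Since it rises with brightness, the detection p was taken as 1 minus this score. The submitters' processing notes name limma. The bead-summary software is not given in the sources used here. Values of 0 columns were left unused for want of a sample.

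Intensities were corrected and quantile-normalized with neqc (limma 3.58.1, R 4.3.3) using an offset of 16 before log2. The filter left the 18200 probes that at least 4 arrays detected (p under 0.05). The arrays had 13786 to 19485 detected probes, more in batch 2 (16732 to 19485) than in batch 1 (13786 to 14965). The limma model had treatment and a 4-level factor of batch and replicate, as in the study's methods; differences between batches came from a model of 6 group means. Adjusted p-values are Benjamini-Hochberg over all kept probes, with 0.05 as threshold. Both Vnn3 probes passed the filter through IL-1α alone and were at background elsewhere, so the planned tests on them (both treatments' mean against untreated, and differences between batches) are not reported. The number of arrays limits the precision.

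The members, gene lists and tests were chosen with earlier results of these data known. Pathway genes are named with values if they passed 1.5-fold in any comparison, 15 in all; others named were chosen after their values were seen. The kept probe with the highest mean stood for its gene. Lists for chondrocyte, neutrophil, macrophage, fibroblast, adipocyte, endothelial and erythroid markers were also examined. Older array symbols were matched as synonyms in RefSeq (GRCm38.p6). Promoter sequence came from RefSeq, which had an entry for Vnn3. The functions were tested on simulated data. Alternatives changed the background correction, scaling, offset, filter, block and arrays.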

Additional observations from a re-analysis of the deposited data

Results flagged for a closer look

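Among 61 groups of 4 arrays examined, 3 held an array well apart from the rest, and chance marks about 1 group in 20. Pparg in untreated cartilage stood at 6.44 on the log2 scale in batch 2 replicate 2, against 6.65 to 6.66 on the other arrays. Angptl4 with IL-1α stood at 11.55 in batch 2 replicate 2, against 11.69 to 11.71. Vnn1 in untreated cartilage stood at 4.86 in batch 1 replicate 2, against 4.52 to 4.57, with all of these under the detection limit.

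Effects on 3 of the 31 kept pathway genes differed between the batches by the limma test of the difference. Over all probes, 8.76% differed in retinoic acid minus IL-1α and 4.82% in IL-1α minus untreated. Nothing particular to the pathway genes is read from this count. For Slc7a11, retinoic acid minus IL-1α was -2.48 in batch 1 and -3.53 in batch 2, a difference of -1.05 (adjusted p = 0.0102). Its IL-1α minus untreated was 1.68 and 2.64, a difference of 0.96 (adjusted p = 0.0264). For Chac1, retinoic acid minus IL-1α was -1.13 and -1.97, a difference of -0.84 (adjusted p = 0.0205). For Pdk4 it was 2.23 and 3.08, a difference of 0.85 (adjusted p = 0.0291). Batch and mouse line cannot be told apart here.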

How the results depend on the processing

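Vnn1 was detected on 0 arrays under every alternative. The bounds for Vnn3 moved with the low end of the scale. Against retinoic acid and then untreated, the brighter probe gave 17.5 and 18.1 with no background correction, 16.1 and 16.4 with an offset of 50, and 17.3 and 18.5 with detection p under 0.01. The other probe gave 13.5 and 13.9, 12.4 and 12.7, then 13.3 and 14.2 under these settings. With each array left out in turn, the bounds of the brighter probe ranged from 28.5 to 31.7 against retinoic acid and from 29.9 to 33.6 against untreated, and those of the other from 21.9 to 24.3 and from 22.9 to 25.8. Leaving out an IL-1α array removes both Vnn3 probes from the 4-array filter, and a filter of 3 arrays, chosen after seeing the data, keeps them. Same-numbered arrays did not deviate together throughout (correlations from -0.11 to 0.39). With no replicate block but batch as a term, the pathway counts were 15, 16 and 14, against 15, 15 and 13, for retinoic acid minus IL-1α and then for each treatment minus untreated (retinoic acid first). With treatment alone they were 6, 6 and 3. With arrays left out they ranged from 15 to 15, from 12 to 17 and from 8 to 14, the 8 without untreated batch 1 replicate 1. Among named pathway genes, 49 of 733 values lost the call and none changed direction.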

Other observations

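The genes beside the Vnn3 and Vnn1 pair did not share the response of Vnn3. In the order of GRCm38.p6, with 0 genes between the vanins, 5 protein-coding genes were taken on each side. On the Vnn3 side, Tbpl1, Tcf21 and Eya4 were at background on all arrays, and Rps12 was matched to no probe. Slc18b1, listed as 1110021L09Rik, was detected on 6 arrays, with mean log2 intensities of 5.74 untreated, 5.59 with IL-1α and 5.53 with retinoic acid, and passed in none of the 3 comparisons. On the Vnn1 side lie trace amine receptor genes. Taar1, Taar3, Taar4 and Taar5 were at background, and Taar2 was detected on 12 arrays, with means of 5.96, 6.01 and 5.81, and passed in none.

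Other cell type lists moved in different directions. With IL-1α against untreated, where 15.1% of all genes rose and 15.0% fell, 2 of 6 macrophage markers rose and 3 fell, with a rise of 2.73 for Cd14 and a fall of 1.47 for Lyz2 on the log2 scale. All 5 fibroblast markers, both kept adipocyte markers and 2 of 4 endothelial markers fell, and 0 of 3 erythroid markers passed in limma (0 at an unadjusted p under 0.05). The summed intensity of the macrophage markers was 5747 to 6811 untreated, 5032 to 8579 with IL-1α and 7461 to 8244 with retinoic acid. Cd163 and Itgam were at background. Their part in the Vnn3 values was not tested.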
